A study of Mus musculus with 4 samples.

Results

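The nuclear genes of the respiratory chain and of ATP synthase were followed in 4 arrays of mouse blood stem and progenitor cells. Members were the non-control probes whose gene name in the scanner tables starts with Nduf, Uqc, Cox4, Cox5, Cox6, Cox7, Cox8 or Atp5, or equals Sdha, Sdhb, Sdhc or Sdhd. The rule took 135 of 55669 probes and 91 of 34839 gene names. Of these genes 82 encode subunits: 36 of complex I, 4 of complex II, 8 of complex III, 19 of complex IV and 15 of ATP synthase, also called complex V. The other 9 carry a matching name without being subunits (Ndufaf1, Ndufaf2, Ndufaf3, Ndufaf4, Uqcc, Cox7a2l, Atp5s, Atp5sl and Cox4nb) and are described separately.

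The respiratory chain sits in the inner mitochondrial membrane. Complexes I and II take electrons from NADH and succinate, complex III passes them to cytochrome c, complex IV hands them to oxygen, and ATP synthase uses the resulting proton gradient to make ATP. Most subunits are encoded in the nucleus, and the mitochondrial genome encodes a small core of them. Long-term stem cells in the marrow are known for a low reliance on this chain compared with cycling progenitors.

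The arrays held cKO LT-HSC, WT LT-HSC, cKO MPP and WT MPP, with 1 array in each of the 4 groups. LT-HSC are long-term haematopoietic stem cells, sorted as the CD34- Flt3- share of the lineage-negative Sca-1+ Kit+ (LSK) marrow, and MPP are multipotent progenitors, sorted as CD34+ Flt3+ LSK cells. Donors were male C57BL/6J mice 10 weeks old, Ly5.2, either p38 cKO (a conditional knockout of the kinase p38 alpha) or WT. Cells of every group were dyed with CFSE, put into Ly5.1 congenic hosts irradiated with 9.5 Gy, and sorted again as CFSE-positive marrow cells 16 h later. The Cre driver, the deleted exons and the number of mice behind each array are not given in the sources used here.

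No group had a second array, so no difference between 2 arrays has a replicate check, and none carries a p-value. Log2 differences were taken after each array's log2 signal was set against its own 75th percentile, and a value is given as measured only where the probe was well above background on both arrays. The only error to hand was the scanner software's own error, with a median of 0.20 log2 for the difference of a member between 2 arrays; it covers neither the animals nor the RNA preparation. Signals are printed before scaling, in the scanner's arbitrary units, and are compared only within a probe. In each pair the first-named group is the one on top, so that a negative value is lower in that group. Each array serves in 2 of the 4 pairs, so the pairs are not independent of each other.

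Between 62.5% and 70.5% of spots were well above background on an array, and no spot was saturated. Both Mapk14 probes (Mapk14 encodes p38 alpha) were well above background on every array. One differed by 0.13 (cKO minus WT in LT-HSC) and -0.03 (cKO minus WT in MPP) and the other by -0.58 and 0.13. Since the deleted part is not given, these probes do not check the genotype labels. Cd34, a gene of the sort, had signals of 3601 in cKO LT-HSC, 1169 in WT LT-HSC, 6331 in cKO MPP and 7733 in WT MPP, and Flt3 had 189, 177, 365 and 515 in the same order. Both genes were thus lower on the LT-HSC arrays than on the MPP arrays. Between the 2 LT-HSC arrays, Cd34 was higher in cKO by 1.71, and Flt3 by 0.18, within its scanner error of 0.21. The part of this Cd34 difference in the subunit values of that pair was not tested. The sort required Sca-1 (Ly6a) and Kit of both populations. Ly6a had 4287, 4387, 860 and 939 in the same order, and Kit had 2763, 2956, 2658 and 3737. Ly6a was thus higher on the LT-HSC arrays (1.96 for LT-HSC minus MPP in WT and 2.11 in cKO). Of 12 stem and progenitor markers, 8 of 11 measured lay below 0 for LT-HSC minus MPP in WT (59.6% of all genes). In cKO 6 of 11 did (57% of all genes). For cKO minus WT in LT-HSC 8 of 12 lay above 0 (58.6% of all genes) and 4 below, from -2.70 (Mecom) to 1.71 (Cd34). Markers of other cells also differed between arrays. The summed signal of 10 B-cell markers, scaled to WT MPP, was 4620, 11465, 387 and 462, and that of 10 stromal and endothelial markers was 2058, 7855, 2226 and 2297. All 10 of each list were well above background on both LT-HSC arrays, against 6 and 7 of the B-cell genes and 8 and 8 of the stromal genes in cKO and WT MPP. The sum of 11 macrophage markers was 5247, 6171, 15698 and 7958 in the same order, with 9, 9, 11 and 10 of them well above background. Erythroid markers summed to 10227, 16176, 7576 and 6510, and neutrophil markers to 51935, 43211, 38032 and 29307. Of the T and NK cell markers 9, 9, 5 and 4 were well above background, with sums of 7060, 7416, 5492 and 5651. The part of such cells in the differences below was not tested, and in a bulk sample fewer cells of a type and less RNA per cell cannot be told apart.

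Subunit RNA was lower in LT-HSC than in MPP in both genotypes, in every complex. In WT the median log2 difference over 79 measured subunits was -1.06, a ratio of 0.479 (interquartile range -1.26 to -0.71), against -0.20 over all 22403 genes measured. Of these 79 subunits 74 lay below 0 (59.6% of all genes did), 65 were lower by 1.5-fold or more (32.6% of all genes) and 45 were lower by 2-fold or more (18.1% of all genes). A single subunit, Cox6a2, was higher by 1.5-fold or more, against 16.3% of all genes. In cKO the median over 79 subunits was -0.56, a ratio of 0.679, against -0.09 over all genes. There too 74 of 79 lay below 0 (57% of all genes), 35 were lower by 1.5-fold or more (19.6% of all genes), 4 by 2-fold or more (6.44% of all genes), and 2, Cox6a2 and Ndufa4l2, were higher (13.5% of all genes). Quantile normalization brings the WT median to -0.57 and the cKO median to -0.34, against -0.06 and -0.07 over all genes. Under it 39 of 79 subunits were lower by 1.5-fold in WT (25% of all genes) and 2 higher (20.2%). In cKO 10 of 79 were lower (17.8% of all genes) and 1 higher (13.5%). The share of subunits past 1.5-fold in cKO thus no longer exceeded that of all genes.

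**Figure D1:**
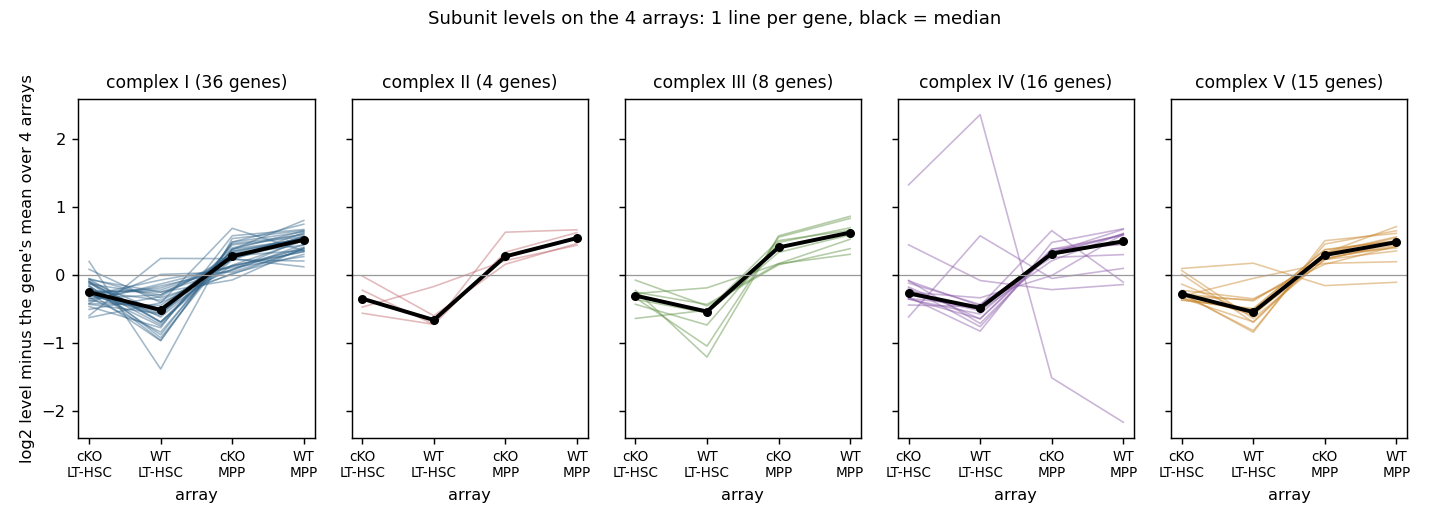
Each panel plots, for 1 complex, the log2 level of each subunit on the 4 arrays (x axis) minus that gene's mean over the arrays (y axis, log2); thin lines are genes measured on all 4 arrays and the black line is the median. The median line is low on both LT-HSC arrays and high on both MPP arrays in all 5 panels, lowest on WT LT-HSC and highest on WT MPP. The line that runs furthest the other way, in complex IV, is Cox6a2.

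The genotype went with small differences of opposite sign in the 2 populations. In LT-HSC the median of 80 measured subunits was 0.25 higher in cKO than in WT, a ratio of 1.19, against 0.10 over all genes. Of the 80, 62 lay above 0 (58.6% of all genes), 12 were higher by 1.5-fold or more (18.7% of all genes) and 3 were lower by that much (14.8% of all genes). The share of subunits past 1.5-fold was therefore no greater than that of genes at large. Taking each array against its median, in place of its 75th percentile, brings this median to 0.05 (-0.10 over all genes) and the subunits past 1.5-fold upwards to 4 (13.0% of all genes). In MPP the median of 79 subunits was -0.21, a ratio of 0.867, against -0.06 over all genes. There 74 of 79 lay below 0 (56.5% of all genes), while only 2 were higher by 1.5-fold or more (6.63% of all genes) and 1 was lower (7.53% of all genes). The middle range of the subunits in MPP was narrow, -0.28 to -0.13, and its ends lay close to the scanner error.

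The 4 values of a gene therefore tended to stand in 1 order, WT MPP above cKO MPP above cKO LT-HSC above WT LT-HSC. That order held for 57 of the 79 subunits well above background on every array (72.2%), against 19.3% of all genes measured on 4 arrays and 29% of the genes with a mean level at or above the 75th percentile. Both MPP arrays exceeded both LT-HSC arrays for 71 of 79 subunits (89.9%), against 37.3% of all genes and 48.9% of the brighter ones. For 60 of 79 subunits cKO was above WT in LT-HSC and below WT in MPP (75.9%), against 32.8% of 21541 genes. The 2 pairs share no array. These counts of order and sign rest on the 75th-percentile scaling and were not repeated under other scalings. Against the array median, 35 of 80 subunits lay below 0 for cKO minus WT in LT-HSC, in place of 18. Under quantile normalization 60 of 79 lay below 0 for cKO minus WT in MPP, in place of 74.

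**Figure D2:**
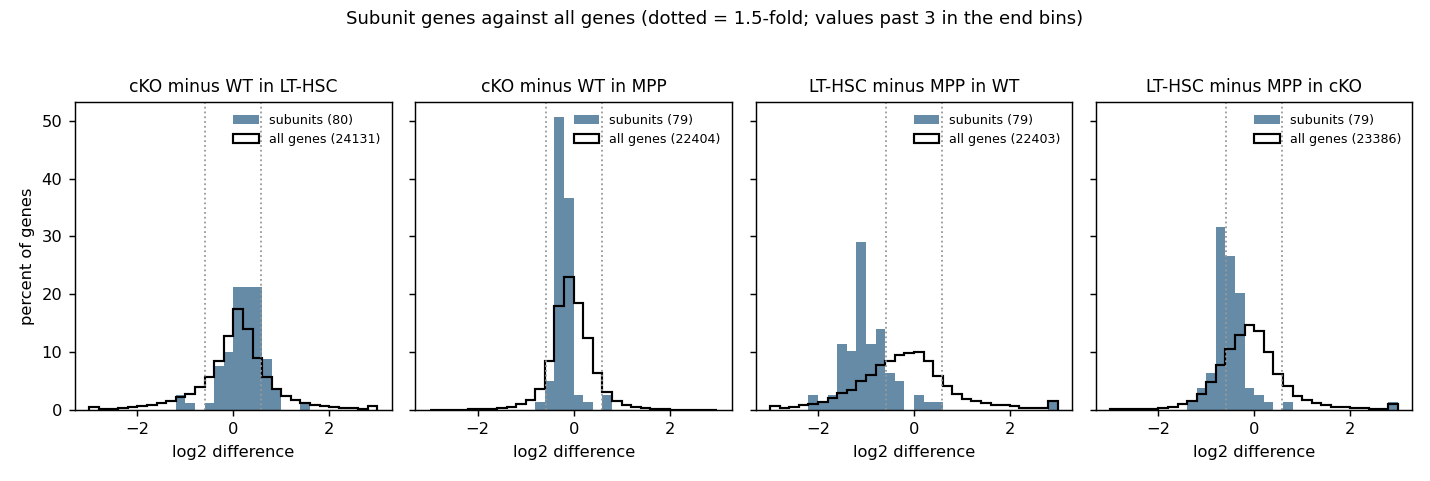
Each panel shows, for 1 pair of arrays, the percent of genes (y axis) in bins of the log2 difference (x axis): filled bars are the subunits, the black outline is all genes measured, and dotted lines mark 1.5-fold. The subunits pile up left of all genes in both LT-HSC minus MPP panels, with Cox6a2 alone in the last bin on the right, and stay inside the 1.5-fold lines for the most part in both cKO minus WT panels.

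An additive limma fit was made over all 4 arrays with genotype and population as terms, on the 25858 genes whose probe passed background on 2 or more arrays. It leaves 1 residual degree of freedom, and that residual is the difference between the 2 genotype contrasts. With Benjamini-Hochberg adjustment over all genes it called no gene for either term, so 0% of all genes in each direction and none of the 80 subunits. Other settings of the fit called up to 199 genes for population and still no subunit. At an unadjusted p under 0.05, 27 of the 80 subunits were lower in LT-HSC (9.16% of all genes) and 1, Cox6a2, was higher (6.71% of all genes). No subunit reached that level for genotype (2.04% of all genes did upwards and 1.58% downwards). The lowest adjusted p in the limma fit among subunits was 0.186, for Cox6a2 (3.68 ± 0.53 SE in LT-HSC over MPP), followed by 0.268 for Sdhc (-1.29 ± 0.28 SE).

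Complex I, the entry point for electrons from NADH, had all 36 subunits measured on all arrays. Its median was -1.06 for LT-HSC minus MPP in WT and -0.50 in cKO, and 0.26 for cKO minus WT in LT-HSC and -0.22 in MPP. The 7 nuclear core subunits, which form the electron path through the complex, were lower in LT-HSC throughout. Ndufv1, which binds NADH and the flavin, had a signal of 1183 in cKO LT-HSC and 765 in WT LT-HSC, with 1581 in cKO MPP and 1764 in WT MPP. It had the lowest core value in WT LT-HSC, at -1.47 against WT MPP, and the highest core value for cKO minus WT in LT-HSC, at 0.71. Its partner Ndufv2 had 1258 and 936 in cKO and WT LT-HSC, and 1755 and 1942 in cKO and WT MPP, which put the LT-HSC arrays at -0.69 in cKO and -1.31 in WT.

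Ndufs1, the largest core subunit, had 1181 and 1487 in cKO and WT LT-HSC, and 1460 and 1781 in cKO and WT MPP. It was lower in cKO in both populations, at -0.25 and -0.26. Ndufs3, a core subunit of the peripheral arm, had 3394 and 2964 in cKO and WT LT-HSC against 4574 and 5241 in cKO and WT MPP.

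Ndufs7, which carries the last iron-sulphur cluster of the chain, had 1364 and 1470 in cKO and WT LT-HSC against 1533 and 1817 in cKO and WT MPP. Its genotype difference in LT-HSC was -0.03. Ndufs8, another iron-sulphur subunit, had 324 and 398 in cKO and WT LT-HSC, and 696 and 565 in cKO and WT MPP. It went against the family in MPP, where cKO was higher by 0.33, and its -1.31 for LT-HSC minus MPP in cKO was the lowest of all 79 subunits in that pair.

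Among the 29 accessory subunits of complex I, which surround and stabilise the core, 12 were lower by 1.5-fold or more in LT-HSC than in MPP in cKO (19.6% of all genes) and 24 in WT (32.6% of all genes). Ndufa9, a subunit near the quinone site, had signals of 1067 in cKO LT-HSC, 378 in WT LT-HSC, 1167 in cKO MPP and 1292 in WT MPP. WT LT-HSC stood apart from the other 3 arrays: cKO LT-HSC was 2.99-fold higher (1.58), and WT LT-HSC was at 0.244 of WT MPP (-2.03). The first is the highest subunit value of its pair and the second the next to lowest of its pair. Its single probe lies at chr6:126771996-126772055 on mm9. Ndufa6 ran differently, with 383 in cKO LT-HSC, 727 in WT LT-HSC, 593 in cKO MPP and 557 in WT MPP. It was lower in cKO LT-HSC than on each of the other arrays, at -0.84 both against WT LT-HSC and against cKO MPP.

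Ndufc2, a membrane-arm subunit, had 5340 and 4551 in cKO and WT LT-HSC, and 9508 and 10337 in cKO and WT MPP. The 2 MPP arrays were well above both LT-HSC arrays (-1.04 in cKO and -1.44 in WT). Ndufs5 had 550 and 512 in cKO and WT LT-HSC, and 474 and 671 in cKO and WT MPP, and its -0.47 was the lowest genotype difference in MPP within the complex. Ndufa1, needed for the membrane arm, had 5339 and 4035 in cKO and WT LT-HSC, and 4438 and 5494 in cKO and WT MPP. In cKO it did not differ between populations beyond the scanner error (0.06), while WT LT-HSC was at -0.71. The 10 Ndufb subunits, all of the membrane arm, ran from -1.64 (Ndufb2) to -0.53 (Ndufb10) for LT-HSC minus MPP in WT. In LT-HSC, cKO minus WT ran from -0.09 (Ndufb10) to 0.82 (Ndufb9). The other accessory subunits lay between -1.71 (Ndufa10) and -0.34 (Ndufab1) for LT-HSC minus MPP in WT.

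**Figure D3:**
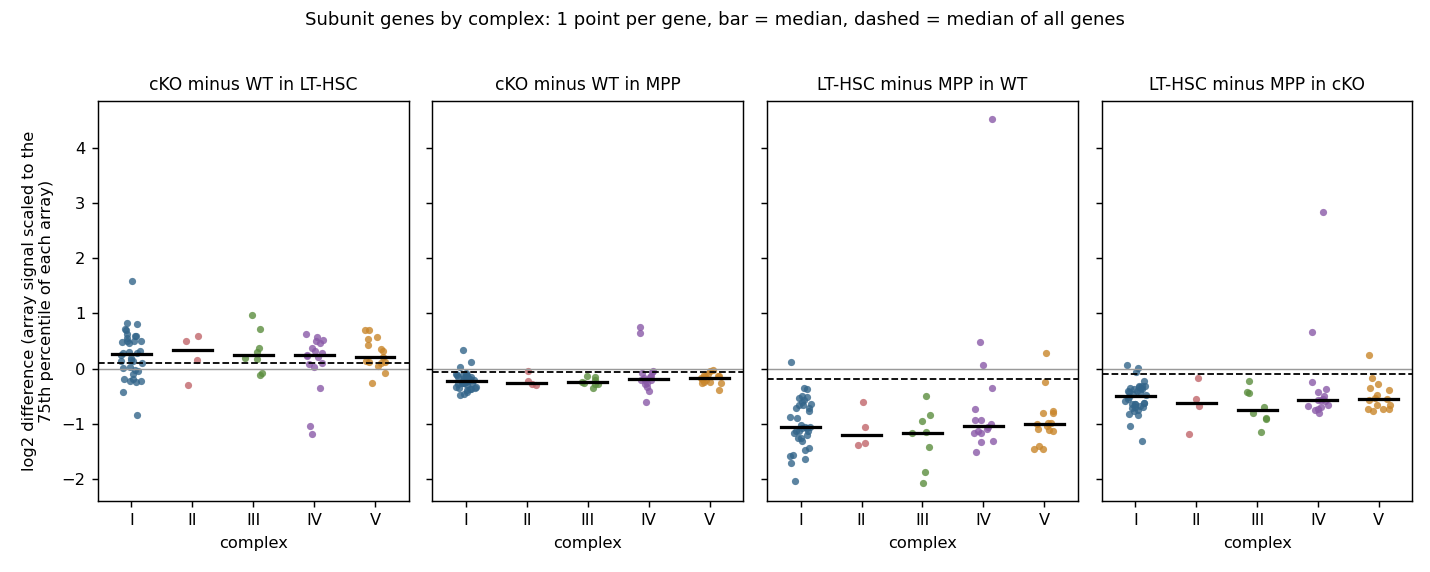
Each panel is 1 pair of arrays; points are subunit genes by complex (x axis) with their log2 difference after scaling to the 75th percentile (y axis), bars are medians of the complex and the dashed line is the median of all genes. The bars of the 5 complexes lie between -1.21 and -1.01 for LT-HSC minus MPP in WT, between -0.74 and -0.50 in cKO, between 0.21 and 0.33 for cKO minus WT in LT-HSC and between -0.26 and -0.17 in MPP.

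Complex II, succinate dehydrogenase, is the 1 complex whose subunits are all nuclear, and it also belongs to the citric acid cycle. Sdha, the flavoprotein, had 1293 and 1688 in cKO and WT LT-HSC, and 1798 and 2146 in cKO and WT MPP, and was lower in cKO in both populations (-0.30 and -0.23). Sdhb, the iron-sulphur subunit, had 883 and 624 in cKO and WT LT-HSC, and 862 and 1086 in cKO and WT MPP. Its cKO minus WT values were of opposite sign, 0.58 in LT-HSC and -0.30 in MPP, so that cKO LT-HSC differed from cKO MPP by less than the scanner error (-0.17). That small population difference holds for the brighter of 2 Sdhb probes alone. The other probe gave -0.65 for LT-HSC minus MPP in cKO and -2.01 in WT. For cKO minus WT it gave 1.23 in LT-HSC and -0.14 in MPP.

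Sdhc, a membrane anchor, had 1554 and 1469 in cKO and WT LT-HSC, and 3072 and 3211 in cKO and WT MPP. It separated the populations alike in both genotypes (-1.19 in cKO and -1.39 in WT), with genotype differences of 0.16 in LT-HSC and -0.04 in MPP. Sdhd, the other anchor, had 1959 and 1462 in cKO and WT LT-HSC, and 2500 and 3112 in cKO and WT MPP. All 4 genes were lower by 1.5-fold or more in WT LT-HSC than in WT MPP (32.6% of all genes), and 2 of 4 were in cKO (19.6% of all genes).

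Complex III, the cytochrome bc1 complex, had 8 nuclear subunits, each lower in LT-HSC than in MPP in both genotypes. Uqcrc2, a core protein of the matrix side, had 2638 in cKO LT-HSC, 1415 in WT LT-HSC, 3978 in cKO MPP and 4952 in WT MPP. WT LT-HSC was at 0.239 of WT MPP (-2.07), the lowest subunit value in that pair, and cKO LT-HSC was 1.97-fold above WT LT-HSC (0.98). Its probe lies at chr7:127802599-127802658 on mm9. Its companion Uqcrc1 had 813 and 937 in cKO and WT LT-HSC, and 1557 and 1763 in cKO and WT MPP. The 2 core proteins thus differed in the genotype pair of LT-HSC, where Uqcrc1 was at -0.12.

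Uqcrb, a small subunit of the complex, had 7414 and 6932 in cKO and WT LT-HSC, and 8589 and 11228 in cKO and WT MPP, and its -0.36 was the lowest genotype difference of complex III in MPP. Uqcrh, the hinge protein, had the smallest difference between WT populations, with 4310 and 4835 in cKO and WT LT-HSC, and 5053 and 5679 in cKO and WT MPP (-0.49 in WT). Uqcrfs1, the Rieske iron-sulphur protein, had 2328 and 1897 in cKO and WT LT-HSC, and 2358 and 2834 in cKO and WT MPP. In cKO its population difference was -0.23, the smallest of the complex. Uqcr10, Uqcr11 and Uqcrq ran from -1.88 to -1.15 for LT-HSC minus MPP in WT.

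Complex IV, cytochrome c oxidase, has subunits with isoforms for particular tissues, and its 19 genes split along that line. The 11 subunits of general use were each lower in LT-HSC by 1.5-fold or more in WT (32.6% of all genes), from -1.50 (Ndufa4) to -0.73 (Cox6c). At their brightest probes they were each higher in cKO than in WT in LT-HSC, from 0.02 (Cox5a) to 0.63 (Cox5b), and each lower in cKO than in WT in MPP, from -0.40 (Cox7b) to -0.04 (Cox6c). Some lay within the scanner error of 0.20, among them Cox5a and Cox4i1 (0.10) in LT-HSC and Cox6c in MPP. Taking each array against its median shifts the LT-HSC pair by -0.20, more than the values of Cox5a and Cox4i1. Of 3 Cox7c probes the lowest gave -0.20 in that pair. Cox6a1, the general form of subunit VIa, had 15042 and 13679 in cKO and WT LT-HSC, and 19466 and 22895 in cKO and WT MPP. Cox4i1, the general form of subunit IV, had 9270 and 9144 in cKO and WT LT-HSC, and 12662 and 14615 in cKO and WT MPP. Ndufa4, long listed with complex I and now placed in complex IV, had 3453 and 2582 in cKO and WT LT-HSC, and 5213 and 6113 in cKO and WT MPP. Cox5b had 5376 and 3670 in cKO and WT LT-HSC, and 6220 and 6921 in cKO and WT MPP.

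Cox7b, Cox6c and Cox5a filled the ends of those ranges. Cox7b had 3341 and 2997 in cKO and WT LT-HSC against 4084 and 5508 in cKO and WT MPP. Cox6c had 3864 and 3291 in cKO and WT LT-HSC against 4344 and 4562 in cKO and WT MPP. In both, each MPP array was above each LT-HSC array. Cox6b1 (-1.31), Cox7a2 (-1.34) and Cox8a (-1.09), the general partners of the isoforms below, were likewise lower in WT LT-HSC than in WT MPP.

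Cox6a2, the heart and skeletal muscle form of subunit VIa, was the 1 measured subunit higher in LT-HSC than in MPP by 1.5-fold or more in both genotypes. Its signal was 1412 in cKO LT-HSC, 3057 in WT LT-HSC, 172 in cKO MPP and 111 in WT MPP, well above background on all 4. LT-HSC exceeded MPP by 22.9-fold in WT (4.52) and by 7.13-fold in cKO (2.83), and cKO minus WT was -1.03 in LT-HSC and 0.65 in MPP. The probe lies at chr7:135349160-135349219 on mm9 and is the only one of the gene. The sum of genes known from plasmacytoid dendritic cells was also highest on WT LT-HSC and next on cKO LT-HSC. The sums of the B-cell, the erythroid and the T and NK cell markers above show that order too. Spib had 2111 in cKO LT-HSC, 5299 in WT LT-HSC, 27.2 in cKO MPP and 27.4 in WT MPP, and Irf8 had 1917, 3518, 344 and 329. Of 7 such genes, chosen after their values were seen, all 7 were well above background on the LT-HSC arrays and on cKO MPP, and 6 on WT MPP. Their summed scaled signal was 12699 in cKO LT-HSC, 19448 in WT LT-HSC, 7052 in cKO MPP and 7087 in WT MPP, with Siglech near level throughout (-0.03 for cKO minus WT in LT-HSC and -0.02 for LT-HSC minus MPP in WT). The part of such cells in the Cox6a2 values was not tested.

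The other isoforms differed less. Cox4i2, the form of subunit IV known from lung and from low oxygen, had 93.0 in cKO LT-HSC, 225 in WT LT-HSC, 119 in cKO MPP and 135 in WT MPP. WT LT-HSC was the high array, and cKO minus WT in LT-HSC was -1.19, the lowest subunit value in that pair. Cox7a1, the muscle form of subunit VIIa, had 161 and 132 in cKO and WT LT-HSC, and 232 and 140 in cKO and WT MPP, with cKO MPP the high array (0.76 over WT MPP, the highest subunit value in that pair). Cox6b2, known from testis, had 1543 and 1541 in cKO and WT LT-HSC, and 1582 and 2462 in cKO and WT MPP. WT MPP was the high array, so that cKO minus WT in MPP was -0.61, the lowest subunit value there.

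Ndufa4l2, known to respond to low oxygen, had 47.5 and 35.0 in cKO and WT LT-HSC, and 26.1 and 28 in cKO and WT MPP, so cKO LT-HSC was the high array (0.66 over cKO MPP). Cox8b, the muscle form of subunit VIII, had 14.8 and 20.1 in cKO and WT LT-HSC and was not well above background in MPP. It was at least 1.09-fold higher in WT LT-HSC than in WT MPP, and at least 1.01-fold higher in cKO LT-HSC than in cKO MPP, against the lowest signal that counts as above background. Cox8c, known from testis, passed background on cKO LT-HSC alone, at 16.2. Its difference from WT LT-HSC, where the signal was 14.5, was 0.25, less than its scanner error of 0.46. Cox7b2 was not well above background on any array.

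**Figure D4:**
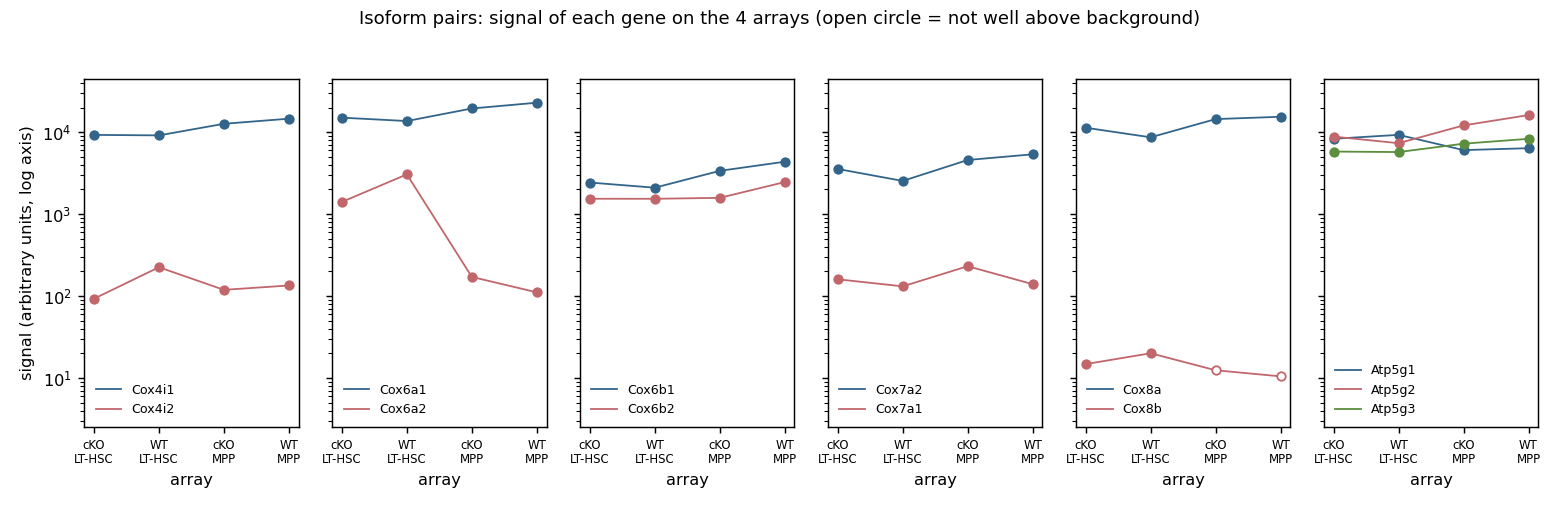
Each panel plots the signal (y axis, arbitrary units before scaling, log axis) of the genes of 1 subunit on the 4 arrays (x axis); filled circles are well above background and open circles are not. Cox6a2 stands at 3057 on WT LT-HSC and 111 on WT MPP, while Cox6a1 has 13679 on WT LT-HSC and its highest signal, 22895, on WT MPP; levels of different genes are not comparable because each has its own probe.

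ATP synthase had 15 subunits, and 14 of them were lower in LT-HSC than in MPP in each genotype. Of the catalytic head, Atp5a1 had 11431 in cKO LT-HSC, 7423 in WT LT-HSC, 11075 in cKO MPP and 12332 in WT MPP. WT LT-HSC was the low array, cKO LT-HSC stood 0.71 above it, and in cKO the populations differed by -0.16, less than the scanner error. Atp5b, the other large head subunit, had 2236 and 2051 in cKO and WT LT-HSC, and 3073 and 3685 in cKO and WT MPP. Atp5c1, the central stalk, had 2959 and 2162 in cKO and WT LT-HSC, and 4269 and 4987 in cKO and WT MPP, and its -1.47 was the lowest WT population difference of the complex. Atp5e, a small stalk subunit, had 22876 and 23344 in cKO and WT LT-HSC, and 29066 and 34209 in cKO and WT MPP.

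Of the peripheral stalk, Atp5h had 18021 and 11684 in cKO and WT LT-HSC, and 18988 and 20802 in cKO and WT MPP, and its 0.71 was the highest genotype difference of the complex in LT-HSC. Atp5f1 had 1183 and 842 in cKO and WT LT-HSC, and 1750 and 1924 in cKO and WT MPP, with the lowest population difference of the complex in cKO (-0.77). Atp5j had 1108 and 1407 in cKO and WT LT-HSC, and 1341 and 1391 in cKO and WT MPP. It was the lowest of the complex for cKO minus WT in LT-HSC (-0.26), and its LT-HSC minus MPP value in WT was -0.24.

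The membrane ring of ATP synthase is built from 1 protein encoded by Atp5g1, Atp5g2 and Atp5g3. Atp5g2 had 8838 and 7342 in cKO and WT LT-HSC, and 12101 and 16175 in cKO and WT MPP, and Atp5g3 had 5803 and 5724 in cKO and WT LT-HSC, and 7241 and 8302 in cKO and WT MPP. Both were lower in LT-HSC. Atp5g1 was the exception, with 8310 and 9283 in cKO and WT LT-HSC, and 6046 and 6381 in cKO and WT MPP (0.25 and 0.28 for LT-HSC minus MPP in cKO and WT). That holds for its brighter probe alone. The other Atp5g1 probe gave -0.68 in cKO and -1.44 in WT, like the rest of the complex. The brighter probe holds, in its last 30 bases, a run of letters found in 11 probes of the array, 1 of them a member, and typical of the B2 family of mouse repeats. These 30 bases are shown with that run in capitals, above the first 30 bases of the other probe.
Atp5g1, brighter probe: gagttggctcagtGGTTAAGAGCgccgact
Atp5g1, other probe: tgccagtcctggtgctggagtctactgagc
The probes lie at chr11:95930317-95930376 and chr11:95934315-95934374 on mm9, minus strand. Which of them reports Atp5g1 messenger RNA was not tested.

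Further genes had probes that differed by more than 1 log2 unit in some pair. Of 29 member genes with several measured probes the median range between probes was 0.20 for cKO minus WT in LT-HSC and 0.24 for LT-HSC minus MPP in WT. Ranges above 1 occurred for 4 genes in the first of these pairs and for 6 in the second. For Ndufb5 the values for LT-HSC minus MPP in cKO ran from -0.63 to 1.77 over 4 probes, and for Ndufv3 from -0.57 to 1.51. For Ndufa3, cKO minus WT in MPP was 0.02 at the brightest probe and 1.51 at the dimmest. For Ndufb11, cKO minus WT in LT-HSC was 0.28 at the brightest probe and 2.58 at the dimmest. Another Ndufb11 probe is placed by the file on chromosome 5 although the gene is on X, and it shares a run of 55 of 60 bases with the brightest one. In all 8 member probes of 7 genes are placed on another chromosome than their gene, and without them and the brighter Atp5g1 probe the subunit medians were 0.26 (cKO minus WT in LT-HSC), -0.21 (cKO minus WT in MPP), -1.06 (LT-HSC minus MPP in WT) and -0.57 (LT-HSC minus MPP in cKO).

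Regulatory letters of the promoters were set beside these values, since many nuclear genes of the chain are known to be bound by NRF1, by the ETS factor GABP and by YY1. RefSeq promoters (GRCm38.p6, 250 bases before to 50 after the start) were at hand for 67 of the 82 subunits and for 27025 genes in all. On either strand, the NRF1 letters, GCGCA and GCGC with any 1 base between them, were in 17 of 67 subunit promoters (25.4%) against 5.19% of all genes. CCGGAAG (ETS) was in 16 (23.9%) against 9.93%, and AAGATGGC (YY1) in 10 (14.9%) against 3.19%. GGGCGG, the GC box, was in 40.3% against 38.2%, and TCAAGGTCA, the ESRRA site, in 2 promoters against 0.466% of genes. Examples from each complex follow, as the 200 bases before the start with NRF1 and ETS letters in capitals, on the strand of the gene.
Ndufs6: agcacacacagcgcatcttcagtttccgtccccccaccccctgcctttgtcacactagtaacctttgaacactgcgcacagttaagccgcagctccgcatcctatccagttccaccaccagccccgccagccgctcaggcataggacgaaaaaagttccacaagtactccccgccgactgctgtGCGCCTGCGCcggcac
Sdhd: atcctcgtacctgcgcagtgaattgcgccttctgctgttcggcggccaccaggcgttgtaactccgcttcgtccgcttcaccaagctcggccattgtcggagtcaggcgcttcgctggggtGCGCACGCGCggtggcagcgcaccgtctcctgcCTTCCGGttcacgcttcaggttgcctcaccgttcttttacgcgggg
Uqcr11: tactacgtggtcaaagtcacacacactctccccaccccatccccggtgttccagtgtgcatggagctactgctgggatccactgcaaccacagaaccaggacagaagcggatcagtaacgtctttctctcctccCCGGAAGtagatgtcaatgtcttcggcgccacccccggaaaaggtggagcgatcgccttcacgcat
Cox6a1: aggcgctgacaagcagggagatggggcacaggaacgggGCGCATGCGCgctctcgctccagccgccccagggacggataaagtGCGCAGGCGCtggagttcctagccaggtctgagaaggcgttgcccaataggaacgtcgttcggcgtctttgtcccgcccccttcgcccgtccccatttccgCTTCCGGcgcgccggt
Atp5h: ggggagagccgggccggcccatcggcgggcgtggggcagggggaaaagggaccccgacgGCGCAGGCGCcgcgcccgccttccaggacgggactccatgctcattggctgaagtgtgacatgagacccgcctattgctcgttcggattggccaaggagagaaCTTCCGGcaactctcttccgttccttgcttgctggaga
The windows are chr13:73328483-73328682, chr9:50603850-50604049, chr10:80406822-80407021, chr5:115348959-115349158 and chr11:115419920-115420119 in the same order, all on the minus strand. With NRF1 letters the median for LT-HSC minus MPP in WT was -1.09 over 17 genes, and without them -1.07 over 48. With YY1 letters the median for cKO minus WT in LT-HSC was 0.15 over 10 genes, and without them 0.28 over 56. These differences between groups of subunits were not tested.

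The mitochondrially encoded subunits, which the name rule does not take, did not share the population difference in WT. All 13 had a probe well above background on every array. Their median for LT-HSC minus MPP was -0.02 in WT, where 7 of 13 lay below 0, against -0.20 and 59.6% for all genes. In cKO it was -0.30, where 13 of 13 lay below 0, against -0.09 and 57% for all genes. For cKO minus WT it was -0.39 in LT-HSC, with 11 of 13 below 0, against 0.10 and 41.4% for all genes. In MPP the cKO minus WT median was -0.16, with 11 of 13 below 0, against -0.06 and 56.5% for all genes. ND4, a core subunit of complex I, had 57190 in cKO LT-HSC, 91546 in WT LT-HSC, 60846 in cKO MPP and 66087 in WT MPP, with WT LT-HSC the high array (-0.60 for cKO minus WT in LT-HSC). COX3, a core subunit of complex IV, had 23578 and 23182 in cKO and WT LT-HSC, and 30115 and 30398 in cKO and WT MPP. For LT-HSC minus MPP in WT, ND3 (-0.81) and COX3 (-0.65) came nearest the nuclear median of -1.06, while 6 of the 13 lay above 0. The file places 7 of the 13 probes on the mitochondrial genome and 6, ND3 and COX3 among them, on chromosome 1, where the nucleus holds a copy of mitochondrial sequence. On the 7 alone the median for LT-HSC minus MPP in WT was 0.03, and for cKO minus WT in LT-HSC -0.47, with all 7 below 0. The probe of ND4, at chrM:11370-11429 on mm9, shows the kind of sequence measured.
ND4: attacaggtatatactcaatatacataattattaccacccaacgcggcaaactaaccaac

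**Figure D5:**
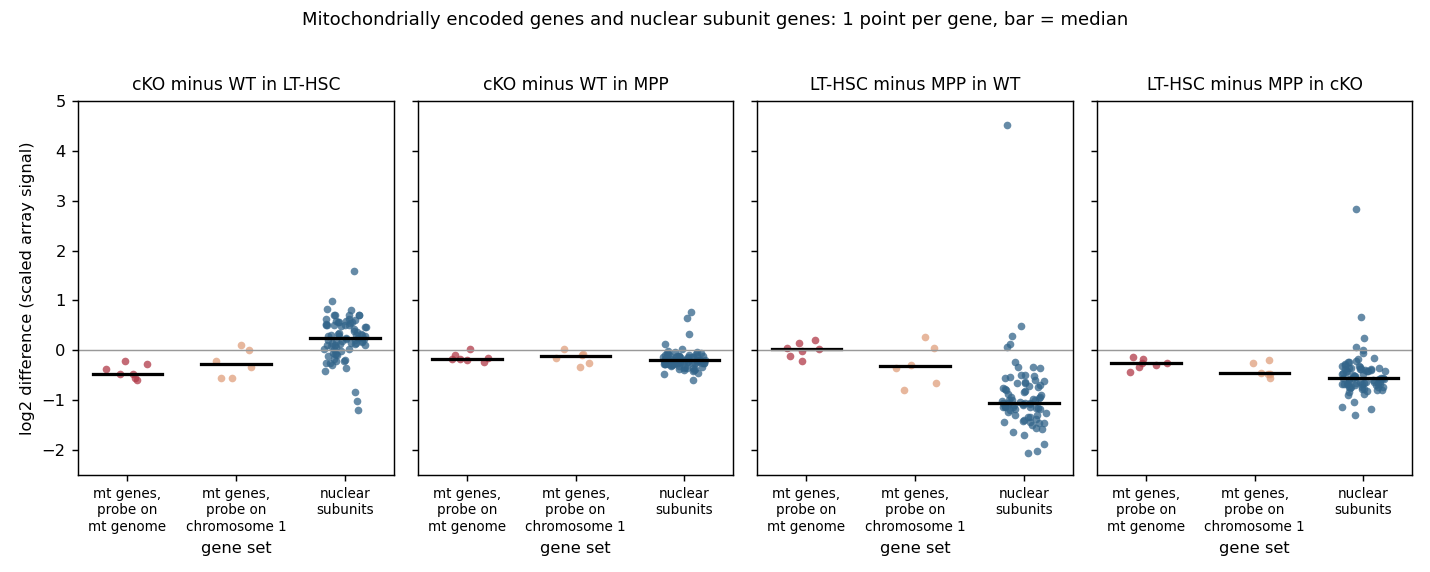
Each panel is 1 pair of arrays, with the log2 difference (y axis) of mitochondrially encoded genes, split by where the file places their probe, and of nuclear subunits (x axis); points are genes and bars are medians. For LT-HSC minus MPP in WT the 7 probes on the mitochondrial genome have a median of 0.03 and the nuclear subunits one of -1.06; for cKO minus WT in LT-HSC the bars lie at -0.47 and 0.25.

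Of the 9 name-sharing genes that are no subunit, 7 were lower by 1.5-fold or more in LT-HSC than in MPP in each genotype (19.6% of all genes in cKO and 32.6% in WT). Uqcc, an assembly factor of complex III, had 74.6 in cKO LT-HSC, 14.9 in WT LT-HSC, 179 in cKO MPP and 183 in WT MPP. WT LT-HSC was far the lowest array: cKO was 5.28-fold higher in LT-HSC (2.40), and WT LT-HSC was at 0.068 of WT MPP (-3.88). Both ratios rest on a signal near the floor, since the lowest signal counted as above background on WT LT-HSC was 12.5. The scanner error of the first was 0.34. Atp5sl, a gene named for its likeness to Atp5s, had 135 in cKO LT-HSC, 710 in WT LT-HSC, 248 in cKO MPP and 321 in WT MPP, so that WT LT-HSC was the high array and cKO minus WT was -2.32. Ndufaf2, an assembly factor of complex I, had 1768 and 1839 in cKO and WT LT-HSC, and 3232 and 4223 in cKO and WT MPP. Ndufaf3 had 56.8 and 55.0 in cKO and WT LT-HSC, and 100 and 88.5 in cKO and WT MPP. In both factors each MPP array stood above each LT-HSC array.

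Ndufaf4, a further complex I factor, had 1468 and 2456 in cKO and WT LT-HSC, and 1914 and 3127 in cKO and WT MPP, and was lower in cKO in both populations (-0.66 and -0.68). Its second probe gave 0.70 in LT-HSC. Cox7a2l is linked to the joining of complexes III and IV. It had 15449 and 11917 in cKO and WT LT-HSC, and 13035 and 14814 in cKO and WT MPP. After scaling, WT MPP was its high array, and LT-HSC minus MPP in cKO was 0.04, within the scanner error. Atp5s had 27.7 and 28 in cKO and WT LT-HSC against 43.4 and 37.7 in cKO and WT MPP, and its 0.23 was the highest genotype difference of these genes in MPP.

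A further 3 lists put the members in their pathway. Of 11 genes for carriers and other subunits outside the rule, 10 were measured in each pair, and 9 were lower by 1.5-fold or more in LT-HSC than in MPP in each genotype (19.6% of all genes in cKO and 32.6% in WT), with medians of -0.75 in cKO and -1.25 in WT. Cyc1, the cytochrome of complex III, had 1146 and 1243 in cKO and WT LT-HSC, and 2020 and 2433 in cKO and WT MPP. Slc25a4, an ADP/ATP carrier, had 2610 and 2088 in cKO and WT LT-HSC, and 4071 and 5487 in cKO and WT MPP. Each of the 2 was lower on both LT-HSC arrays. Among 35 assembly factors outside the rule, 25 were measured in WT and 26 in cKO, and 19 of 25 in WT (32.6% of all genes) and 13 of 26 in cKO (19.6% of all genes) were lower in LT-HSC by 1.5-fold. The lowest in WT was Atpaf1, a chaperone of ATP synthase (-2.24), and the highest was Tmem126b, a complex I factor (1.75).

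Among 20 regulators of mitochondrial biogenesis, 2 of 20 measured in cKO were lower in LT-HSC than in MPP by 1.5-fold or more (19.6% of all genes) and 3 higher (13.5%). In WT 9 of 18 were lower (32.6% of all genes) and 3 higher (16.3%). For cKO minus WT in LT-HSC, 9 of 18 lay above 0 (58.6% of all genes) and 9 below, down to -0.83 for Esrra, a nuclear receptor. There 7 of 18 were higher by 1.5-fold or more (18.7% of all genes), 6 of them by 2-fold or more (8.98% of all genes), and 1 was lower. Top1mt, the mitochondrial topoisomerase, had 486 in cKO LT-HSC, 92.0 in WT LT-HSC, 553 in cKO MPP and 822 in WT MPP, and the difference in LT-HSC was 2.48. Gabpa, the DNA-binding subunit of GABP, had 270 and 98.5 in cKO and WT LT-HSC, and 380 and 472 in cKO and WT MPP. Tfam, which packages mitochondrial DNA and starts its transcription, had 416 and 183 in cKO and WT LT-HSC, and 526 and 565 in cKO and WT MPP. In these 3 genes WT LT-HSC was the low array and cKO LT-HSC stood between it and the MPP arrays. Mterfd2, Polg2 and Mterf were also higher by 2-fold or more in cKO LT-HSC than in WT LT-HSC, but ran differently. In them cKO LT-HSC stood above both MPP arrays, at 0.77, 1.52 and 0.96 over cKO MPP in the same order. Ppargc1a, a coactivator of the programme, was well above background on all arrays but WT LT-HSC.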

How the data were processed

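RNA of 4 cell samples was hybridised to 1-colour (Cy3) Agilent arrays of design 028005. The deposited scanner tables hold spot intensities, which Feature Extraction background-subtracted and detrended within each array. Its version is 10.7.3.1 in the headers, while 9.5.3 stands in the submitters' processing notes. Flags for background and outliers are 0 or 1 scores set by the same software, per the file headers. The authors' series table holds linear ratios near 100; set against the scanner values, they are the same signals scaled by 1 factor per array and per probe, and column medians were 97.5 in cKO LT-HSC, 91.9 in WT LT-HSC, 102 in cKO MPP and 107 in WT MPP.

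Control and outlier spots (137 to 151 per array) were left out, spots of a probe averaged, and log2 signals taken relative to each array's 75th percentile. A gene was represented by its brightest probe among those well above background on at least 1 array. Calls were differences of 1.5-fold or 2-fold, read against all genes. The additive fit used limma 3.58.1 in R 4.3.3, and was tested on simulated data. Alternatives were normexp (offset 50), quantile, median and other percentile scaling, other filters, other probe rules and the authors' table. Member probes were matched to RefSeq names by accession (121) or symbol (14). Genes named were, per complex, the gene with the highest mean log2 signal (a rule for choosing, not a ranking of RNA levels) and the highest and lowest in each pair, the isoforms, core subunits and complex II, and genes whose probes disagreed; every other member is covered by counts and ranges. The values of 1 core subunit are not reported here. Plasmacytoid dendritic genes and some examples were added after values were seen. The members and lists were chosen with earlier results of these data known. With 1 array per group, precision is limited by the number of arrays.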

Additional observations from a re-analysis of the deposited data

Results flagged for a closer look

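In the 2 populations the genotype differences of the subunits had opposite signs, higher in cKO in LT-HSC and lower in cKO in MPP; whether the 2 differ was not tested, since each rests on 1 array per group. The median cKO minus WT value was 0.25 in LT-HSC and -0.21 in MPP over all subunits, a gap of 0.45. By complex the gap was 0.49 for complex I, 0.59 for complex II, 0.50 for complex III, 0.43 for complex IV and 0.38 for complex V. Among single subunits with both differences beyond the scanner error and 1 of them past 1.5-fold, the gap was 0.97 for Ndufa10, 0.94 for Ndufb4, 1.09 for Ndufb9, 0.99 for Uqcr10 and 1.27 for Uqcrc2. Cox6a2 ran the other way, with -1.03 in LT-HSC, 0.65 in MPP and a gap of -1.68.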

How the results depend on the processing

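Quantile normalization, with or without normexp, moved the population medians by more than the other scalings. All counts of subunits higher or lower in this paragraph are of those past 1.5-fold. The subunit median for LT-HSC minus MPP became -0.57 in WT and -0.34 in cKO. In WT 39 of 79 were lower (25% of all genes) and 2 higher (20.2%). In cKO 10 of 79 were lower (17.8% of all genes) and 1 higher (13.5%). For cKO minus WT in MPP 0 were lower by 1.5-fold (7.09% of all genes), and the limma median for population was -0.44. Normexp before quantile gave -0.56 in WT and -0.32 in cKO. There 36 of 79 were lower (17.5% of all genes) and 3 higher (14.4%) in WT. In cKO 7 of 79 were lower (9.41% of all genes) and 1 higher (8.13%). For cKO minus WT in MPP there were 0 either way (1.71% of all genes downwards and 1.96% upwards). Normexp with the 75th percentile left 0 higher in cKO MPP (1.68% of all genes) and 1 higher for LT-HSC minus MPP in cKO (7.17%). The array median left 4 higher in cKO LT-HSC than in WT LT-HSC (13.0% of all genes) and 1 higher for LT-HSC minus MPP in cKO (11.4%). A percentile over probes above background on all arrays was also taken. For LT-HSC minus MPP it gave 20 lower in cKO (14.6% of all genes) and 2 higher in WT (20.6%). For cKO minus WT in MPP it gave 0 lower (6.07% of all genes). With no filter, 2 were higher for LT-HSC minus MPP in WT (18.1% of all genes). Counting every probe gave 24 of 120 probes higher in cKO LT-HSC (20.1% of all probes) and 3 of 119 lower in cKO MPP (8.63%). For LT-HSC minus MPP 3 of 119 were higher in WT (16.9% of all probes) and 5 of 119 in cKO (14.2%). The share of 24 was thus no greater than that of all probes. Without the 8 tissue isoforms, a choice made after seeing the data, 1 was lower in cKO LT-HSC (14.8% of all genes). For LT-HSC minus MPP 0 were higher in WT (16.3% of all genes) and 0 in cKO (13.5%). For cKO minus WT in MPP 0 were higher (6.63% of all genes) and 0 lower (7.53%). Limma called 141 of all genes for population after normexp, 68 among genes above background on all arrays and 199 with a trended prior, and no subunit in any of these. Ndufaf4 reversed to 0.022 for cKO minus WT in LT-HSC with its probes averaged. The causes were not tested. The subunit medians kept their sign in every setting run, from 0.05 to 0.28 (cKO minus WT in LT-HSC), -0.22 to -0.09 (cKO minus WT in MPP), -1.07 to -0.56 (LT-HSC minus MPP in WT) and -0.65 to -0.32 (LT-HSC minus MPP in cKO). No paired analysis was possible because each group has 1 array and so no second replicate number to block on; the additive fit takes genotype and population as terms, not a replicate. For the same reason no array could be left out with a test remaining. Dim signals near background limit what can be said of the isoforms Cox7b2, Cox8b and Cox8c, and of Uqcc on WT LT-HSC.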
